A study of Mus musculus with 3 samples.

Results

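The deep-layer projection neuron genes examined here are 10 genes that mark or build the excitatory neurons of cortical layers 5 and 6: Tbr1, Foxp2, Tle4, Syt6, Sox5, Bcl11b, Fezf2, Ldb2, Crym and Etv1. They were taken by name, among 35468 genes or gene models on the array, and every non-control probe that carries 1 of these names was kept, which gave 19 of 55681 probes. Of these 19 probes, 17 passed the filter on dim probes, under which a probe had to be well above background in at least 1 colour on at least 2 of 3 arrays. Every member kept at least 1 probe.

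Dorsal cortex of 4-day-old mouse pups (postnatal day 4) provided the RNA, which was hybridised to 3 two-colour Agilent arrays. On each array the Cy5 channel is labelled as a Brpf1-deficient pup and the Cy3 channel as a wild-type pup of the same numbered pair. Both kinds of pup were untreated, and the sources used here give neither how or in which cells Brpf1 was removed nor the strain and sex of the pups. Brpf1 encodes a scaffold protein of histone acetyltransferase complexes. The labels do not say whether the 3 pairs came from separate litters, and with 3 arrays the smallest p of an exact two-sided sign-flip permutation test is 0.25, so the p-values below come from the limma fit across all probes.

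Layer 6 holds corticothalamic neurons, whose axons reach the thalamus, and layer 5 holds neurons that project to the brainstem, the spinal cord and the striatum. Their identities are set by transcription factors that act on each other: Fezf2 directs the subcerebral fate of layer 5 and acts upstream of Bcl11b, Tbr1 restrains that programme in layer 6, and Sox5 times the order in which the deep subtypes appear. In neonatal mouse cortex these genes serve as standard layer markers.

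The targeted gene and the tissue markers were checked first. The log2 ratio of Brpf1, Cy5 over Cy3, was 0.63, 0.73 and 0.96 on arrays 1, 2 and 3, a mean of 0.77 ± 0.17 (SD, n = 3 arrays, limma adjusted p = 0.00452), so it was brighter in the channel labelled Brpf1-deficient. This direction goes against the channel's label, and its sign is opposite to that in the authors' deposited table, which gives Brpf1 a log fold change of -0.80 without stating the direction of its ratio. Whether the single Brpf1 probe lies inside the deleted part is not known here. For this reason each value names its channel and that channel's label, positive ratios stand for more signal in Cy5, and the genotype behind either direction is not settled. No dyes were swapped, so a dye effect and genotype cannot be told apart. Of 12 markers of cortical glutamatergic neurons, 11 were well above background in both channels on all 3 arrays. The exception was Emx1, a homeobox gene of the dorsal forebrain, whose signal in Cy5 was 1674, 150 and 161 on arrays 1, 2 and 3, against 1070, 993 and 1011 in Cy3. Array 1 therefore stood apart from arrays 2 and 3 in the Cy5 level of Emx1, which was singled out after its values were seen, so member counts are also given without array 1.

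Of the 10 deep-layer genes, 4 were brighter in Cy5 (Tbr1, Syt6, Bcl11b and Etv1) and 2 were brighter in Cy3 (Ldb2 and Crym). With median centring neither Cy3 call held: Ldb2 fell to -0.12 (limma adjusted p = 0.400) and Crym turned to 0.14. Foxp2, Tle4, Sox5 and Fezf2 did not pass an adjusted p of 0.05. Each gene is represented in this count by its brightest probe. Over all 23232 genes tested, 16.8% passed, with 7.78% brighter in Cy5 and 9.00% brighter in Cy3. Counted by probe, 6 of the 17 measured member probes were brighter in Cy5 and 2 in Cy3, against 16.9% past the threshold among all 32983 probes, 7.51% in the Cy5 direction and 9.38% in the Cy3 direction. The median log2 ratio over the 10 genes was 0.20, beside -0.01 over all genes, and the members ranged from -0.33 to 0.86. Among the lists described below, the median was 0.21 for upper-layer genes, 0.23 for subplate genes and 0.16 for cortical glutamatergic markers. For the other genes of layer 5 and layer 6 it was -0.04 and -0.03. The median absolute log2 ratio was 0.33 over the members, 0.14 over all probes tested and 0.38 over the called ones. At a p under 0.05 before adjustment, 11 of the 17 member probes passed, against 37.0% of all probes tested. Without array 1, the count was 5 probes and 4 genes, with 13.3% of all probes and 13.2% of all genes past the threshold. Without array 3 it was 4 probes and 2 genes, with 7.03% of all probes and 7.13% of all genes. With the scanner software's own processed signals, 1 member probe, that of Etv1, passed, and 4.34% of all probes did. In bulk tissue, fewer cells of a type and less RNA per cell cannot be told apart.

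**Figure D1:**
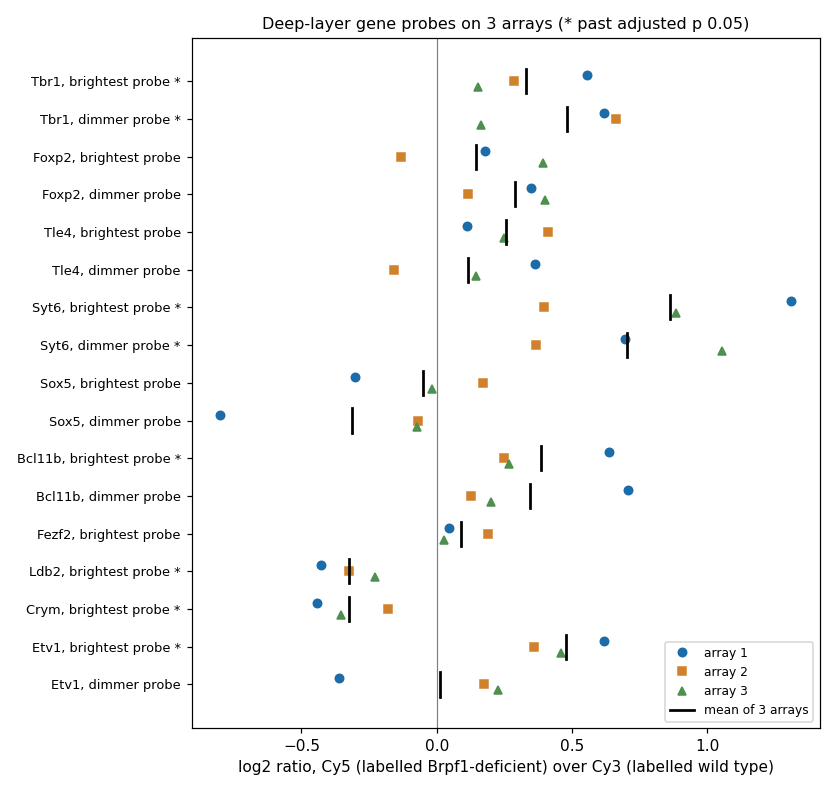
The plot of log2 ratios by array shows each of the 17 measured probes of the deep-layer genes, 1 row per probe, with the log2 ratio of Cy5 over Cy3 on the horizontal axis, a symbol per array and a bar at the mean of 3 arrays. Both Syt6 probes lie farthest to the right, with means of 0.86 and 0.70, and Ldb2 and Crym lie to the left on all 3 arrays with loess normalization (Crym turned with median centring).

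For 7 of the 10 members, RefSeq promoter sequence of assembly GRCm38.p6 was at hand, 11 promoters in all. The 250 bases before the start site are shown for the 4 genes brighter in Cy5, since these moved in the same direction, with 1 start site each for Syt6 and Etv1, which have several. Each runs 5′ to 3′ on the gene's own strand, and capitals mark a GC box (GGGCGG) or a TATA box (TATAAA) on either strand.
Tbr1, chr2:61804203-61804452, plus strand: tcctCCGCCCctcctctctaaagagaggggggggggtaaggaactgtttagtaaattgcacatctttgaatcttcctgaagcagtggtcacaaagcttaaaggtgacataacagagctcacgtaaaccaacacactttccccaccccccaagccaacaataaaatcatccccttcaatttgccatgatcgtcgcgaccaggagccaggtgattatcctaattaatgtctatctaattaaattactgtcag
Syt6, chr3:103574995-103575244, plus strand: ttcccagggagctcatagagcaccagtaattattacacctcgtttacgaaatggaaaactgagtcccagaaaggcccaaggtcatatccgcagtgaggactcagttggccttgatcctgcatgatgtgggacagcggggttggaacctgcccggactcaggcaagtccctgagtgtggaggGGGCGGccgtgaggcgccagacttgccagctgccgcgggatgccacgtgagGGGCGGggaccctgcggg
Bcl11b, chr12:108003415-108003664, minus strand: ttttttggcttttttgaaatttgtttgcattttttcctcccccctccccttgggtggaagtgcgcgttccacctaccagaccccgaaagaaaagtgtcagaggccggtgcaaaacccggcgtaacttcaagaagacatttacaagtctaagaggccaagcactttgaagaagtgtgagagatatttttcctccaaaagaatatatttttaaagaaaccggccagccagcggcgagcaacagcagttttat
Etv1, chr12:38783461-38783710, plus strand: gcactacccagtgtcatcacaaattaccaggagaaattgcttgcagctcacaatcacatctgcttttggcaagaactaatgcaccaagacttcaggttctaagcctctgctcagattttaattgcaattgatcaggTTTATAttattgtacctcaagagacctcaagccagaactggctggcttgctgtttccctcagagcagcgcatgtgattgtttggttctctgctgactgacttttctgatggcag
The Tbr1 window holds 1 GC box, on the opposite strand, at its far end, and the Syt6 window holds 2 close to the start site. A GC box was found in 7 of the 11 member promoters, which belong to 4 genes and in part overlap. The Etv1 window shown is the only 1 of the 11 member promoters with a TATA box. The other Etv1 promoter holds none of the motifs searched, and the Bcl11b window holds neither a GC box nor a TATA box. The 4 windows therefore share none of the motifs searched. Among 32851 mouse promoter windows of the same length, 32.7% hold a GC box, 12.4% a TATA box and 33.8% a CCAAT box (CCAAT), which was found in 1 of the 11 member promoters, a Tle4 promoter. The T-box half-site AGGTGTGA, the core that T-box factors such as Tbr1 bind, is in 1.12% of all windows and in 0 of the 11. The letters of a motif show neither binding nor a cause.

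Tbr1, the T-box transcription factor that specifies layer 6 corticothalamic neurons, was brighter in Cy5. The normalised signal of its brightest probe (A_55_P2112584) was 16256, 13435 and 12903 in Cy5 on arrays 1, 2 and 3, against 11059, 11013 and 11612 in Cy3. The 3 Cy5 levels all lay above the 3 Cy3 levels, with the widest gap on array 1. Such levels are linear spot signals after normalization within and between arrays. They may be compared between channels and arrays for 1 probe, but not between probes. The log2 ratios were 0.56, 0.29 and 0.15, a mean of 0.33 ± 0.21 (SD, n = 3), 1.26-fold, with an adjusted p of 0.0480 in limma. A dimmer probe (A_55_P2405129) had signals of 543, 446 and 386 in Cy5 and 354, 282 and 344 in Cy3, and these did not overlap either. Its mean log2 ratio was 0.48 ± 0.28 (limma adjusted p = 0.0282), so both Tbr1 probes passed in the same direction. The brightest probe is close to the threshold: its adjusted p lay between 0.0507 and 0.102 in 5 of 15 other settings, among them without array 1 and without array 3.

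Syt6, a member of the synaptotagmin family of membrane-trafficking proteins and a marker of layer 6 corticothalamic neurons, had the largest log2 ratio among the members. Its brightest probe (A_55_P1965219) read 3236, 2454 and 2654 in Cy5, against 1305, 1865 and 1439 in Cy3. The channels did not overlap, and the pair on array 2 was the closest. The log2 ratios of 1.31, 0.40 and 0.88 averaged 0.86 ± 0.46 (SD, n = 3), 1.82-fold, with a limma adjusted p of 0.0159. The dimmer probe (A_55_P2121240), which the files assign to another transcript, read 1558, 2016 and 2275 in Cy5 and 962, 1564 and 1096 in Cy3. Here the channels overlapped by a narrow margin, since the Cy5 signal of array 1 was just below the Cy3 signal of array 2. Its log2 ratios of 0.70, 0.37 and 1.05 averaged 0.70 ± 0.34 (limma adjusted p = 0.0154). Both probes passed in 14 of 15 and in 12 of 13 other settings. The exception was the scanner software's processed signals, with adjusted p of 0.0622 and 0.0546.

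Foxp2, a forkhead transcription factor of layer 6 that is also expressed by striatal neurons, gave values on 3 probes. The brightest (A_66_P130601) read 1302, 1527 and 1735 in Cy5 and 1152, 1675 and 1321 in Cy3, so the channels overlapped and array 2 ran the other way. Its mean log2 ratio was 0.15 ± 0.27 (limma adjusted p = 0.341). The second (A_51_P233753) had log2 ratios of 0.35, 0.12 and 0.40, a mean of 0.29 ± 0.15, and just missed the threshold at a limma adjusted p of 0.0506. It passed in 6 of 13 other settings, at adjusted p of 0.0258 to 0.0498. The last (A_55_P2113399) was well above background in Cy5 on 1 array and in Cy3 on none, and was not tested. The 2 measured Foxp2 probes differed by -0.14 ± 0.12 (brightest minus dimmer, log2, n = 3), the brightest being lower on all 3 arrays.

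Tle4, a Groucho-type corepressor found in layer 6 corticothalamic neurons, had a positive mean on both probes without passing. The brightest (A_55_P2328920) read 1614, 1832 and 1871 in Cy5 and 1494, 1379 and 1576 in Cy3. The channels were separate on this probe, and the gap was widest on array 2. Its mean log2 ratio was 0.26 ± 0.15 with a 95% interval of 0.07 to 0.45 before adjustment (limma adjusted p = 0.0678). The dimmer probe (A_55_P1998359) gave 0.36, -0.16 and 0.14, with overlapping channels (limma adjusted p = 0.445).

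Sox5, a SOX transcription factor that controls when deep-layer subtypes arise, did not pass the threshold on either measured probe. Its brightest probe (A_55_P2156905) read 106698, 121800 and 118810 in Cy5, against 131709, 108196 and 120286 in Cy3. The channels overlapped, and the order differed between arrays 1 and 2. The mean log2 ratio was -0.05 ± 0.24 with an interval of -0.28 to 0.18 (limma adjusted p = 0.738). A dimmer probe (A_51_P500318) had log2 ratios of -0.80, -0.07 and -0.07 (limma adjusted p = 0.156), with a mean of -0.31. Without array 2 this probe passed, at -0.44 (limma adjusted p = 0.0187), the only 1 of 13 other settings in which it did. Another probe (A_55_P2088765), well above background on 1 array in each channel, was not tested. The brightest probe depends on how bright spots are normalised: among the 1000 probes nearest to it in intensity the median log2 ratio was 0.19 after loess, and with median centring in place of loess its mean was 0.52 (adjusted p = 0.0294).

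Bcl11b, the zinc-finger factor also known as Ctip2 that guides the axons of layer 5 subcerebral neurons and is also expressed by striatal projection neurons, was brighter in Cy5. Its brightest probe (A_51_P171772) read 12002, 11797 and 11457 in Cy5, against 7718, 9918 and 9521 in Cy3. All 3 Cy5 values lay within a narrow range above every Cy3 value, and the low Cy3 value of array 1 set the spread. The log2 ratios of 0.64, 0.25 and 0.27 averaged 0.38 ± 0.22 (SD, n = 3), 1.31-fold, with a limma adjusted p of 0.0354. A second probe (A_52_P925277), assigned to another transcript, read 6461, 6008 and 5568 in Cy5 and 3958, 5498 and 4847 in Cy3. Its channels did not overlap, but its mean of 0.35 ± 0.32 did not pass (limma adjusted p = 0.0782). The probes differed by 0.04 ± 0.10 (brightest minus dimmer, log2), which is within the spread between arrays. The call on the brightest probe held in 11 of 15 other settings. It was lost with the processed signals (adjusted p = 0.0891), with both probes averaged (0.0558), without array 1 (0.0506) and without array 3 (0.0596).

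Fezf2, the zinc-finger selector of subcerebral identity that acts upstream of Bcl11b, differed little between the channels. Its single probe (A_51_P206489) read 4988, 5368 and 5039 in Cy5, against 4832, 4704 and 4939 in Cy3. Every Cy5 level was above every Cy3 level, by a small margin on arrays 1 and 3. The mean log2 ratio was 0.09 ± 0.09 (SD, n = 3), with a 95% interval of -0.08 to 0.26 (limma adjusted p = 0.408), and it passed in 0 of 15 other settings.

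Ldb2, a cofactor that binds LIM-domain proteins and marks layer 5 subcerebral neurons, was brighter in Cy3. Its probe (A_55_P2013601) read 11744, 14123 and 14292 in Cy5, against 15795, 17663 and 16735 in Cy3. The Cy5 levels all lay below the Cy3 levels. The log2 ratios of -0.43, -0.32 and -0.23 averaged -0.33 ± 0.10 (SD, n = 3), 1.25-fold higher in Cy3, with a limma adjusted p of 0.0301. The sign was negative in all 15 other settings, and the call held in 11. It was lost with median centring (-0.12, adjusted p = 0.400), with the processed signals (adjusted p = 0.0684), without array 2 (0.0559) and without array 3 (0.0708).

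Crym, a cytosolic protein that binds thyroid hormone and marks layer 5 neurons, was brighter in Cy3 after loess, although this direction turned with median centring (0.14, adjusted p = 0.334). Its probe (A_51_P264695) read 56138, 59421 and 56898 in Cy5, against 76361, 67242 and 72729 in Cy3. The 3 Cy5 levels were close together and below all Cy3 levels. The log2 ratios of -0.44, -0.18 and -0.35 averaged -0.33 ± 0.14 (SD, n = 3), 1.25-fold higher in Cy3, with a limma adjusted p of 0.0349. It passed in 11 of 15 other settings. Besides median centring, the call was lost with the processed signals (adjusted p = 0.0731), without array 1 (0.0628) and without array 3 (0.127).

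Etv1, an ETS transcription factor of layer 5 also known as Er81, was brighter in Cy5 on its brightest probe (A_66_P135185). The signal was 22764, 19049 and 18455 in Cy5, against 14822, 14864 and 13407 in Cy3. The channels were widely separate on every array, and array 1 had the largest gap. The log2 ratios of 0.62, 0.36 and 0.46 averaged 0.48 ± 0.13 (SD, n = 3), 1.39-fold, with a limma adjusted p of 0.0136. A far dimmer probe assigned to the same transcript (A_55_P1986321) read 241, 514 and 381 in Cy5 and 310, 455 and 326 in Cy3. Its channels overlapped, its ratios of -0.36, 0.17 and 0.23 did not share a sign, and its mean was 0.01 ± 0.33 (limma adjusted p = 0.947). The 2 probes thus disagree on array 1, where they differ by 0.98. The brightest probe passed in 14 of 15 other settings, and the call ended when both probes were averaged (0.25, adjusted p = 0.0576).

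**Figure D2:**
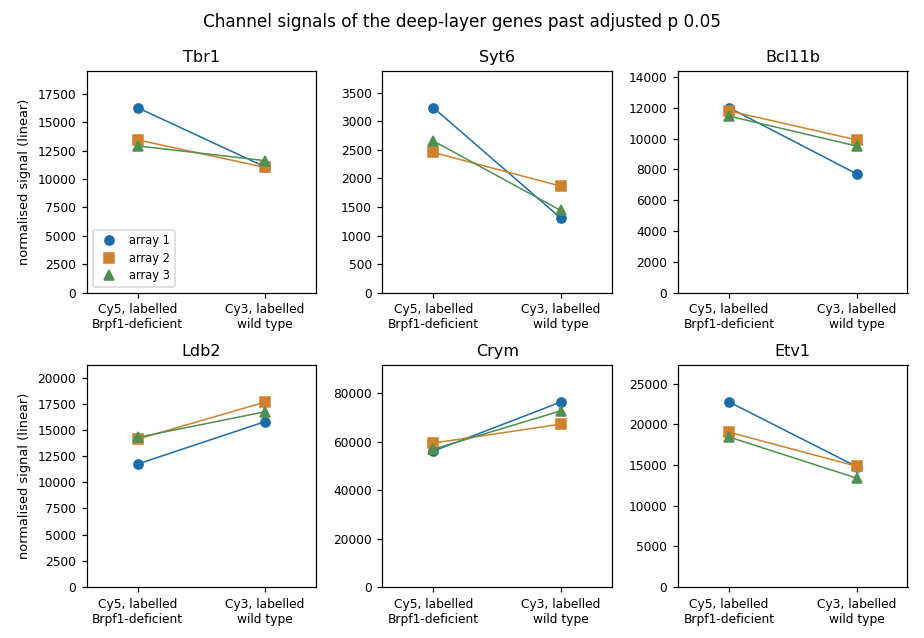
The panels show the normalised linear signal on the vertical axis, from 0, for the 6 genes past an adjusted p of 0.05, with Cy5 (labelled Brpf1-deficient) left of Cy3 (labelled wild type) and a line joining the channels of each array. In every panel the 3 Cy5 points and the 3 Cy3 points do not overlap, above for Tbr1, Syt6, Bcl11b and Etv1 and below for Ldb2 and, after loess but not median centring, Crym.

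Across the members, 10 of 17 measured probes had channel levels that did not overlap, against 36.0% of all probes tested. The sign was the same on all 3 arrays for 13 of 17 probes, and for 59.7% of all probes tested. Array 1 gave the largest absolute log2 ratio for 11 of the 17, and for 57.3% of all probes, so this holds for the arrays at large. Of the genes described above as layer 6 markers, Tbr1 and Syt6 were called, both brighter in Cy5, and Foxp2 and Tle4 were not called. Of those of layer 5, Bcl11b and Etv1 were brighter in Cy5, Ldb2 and Crym were brighter in Cy3, and Fezf2 was not called. With median centring, Ldb2 and Crym were not called and Crym turned.

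In the authors' deposited table, 17 of the 19 member probes are listed, and the 15 of these that were tested here all have the opposite sign there. This holds for the whole array: all 5571 probes called here have the opposite sign in the authors' deposited table. The authors' deposited table gives Syt6 log fold changes of -0.91 and -0.76, with adjusted p-values of 0.242 and 0.240. For Etv1 the authors' deposited table gives -0.48, with an adjusted p of 0.240, and for Tbr1 -0.33 and -0.65, with adjusted p-values of 0.290 and 0.249. In the authors' deposited table, Ldb2 stands at 0.33 and Crym at 0.34. The lowest adjusted p-value of any spot in the authors' deposited table is 0.159, so neither a member nor any other spot passes 0.05 in it. Most sizes are close to those found here, but the dimmer Tbr1 probe stands at -0.65 there against 0.48 here. The dimmer Sox5 probe stands at 0.45 there against -0.31 here. The brightest Sox5 probe and the dimmer Etv1 probe are not listed there. The calls above belong to the fit described here.

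Other genes of the same layers were taken from lists by name. Among 19 other layer 5 genes, 4 passed in the Cy5 direction and 3 in the Cy3 direction, with a median log2 ratio of -0.04. The smallest adjusted p-values belonged to Otx1, a homeobox factor of layer 5, at 1.09 ± 0.10 (limma adjusted p = 0.000524), and to Npr3, a natriuretic peptide clearance receptor, at -1.13 ± 0.14 (limma adjusted p = 0.000631). Lmo4, a LIM-only protein, followed at 0.76 ± 0.12. The Otx1 probe was well above background in Cy3 on 2 of 3 arrays, at 170, 148 and 143, so its ratio rests on a dim channel. Among 20 other layer 6 genes, 5 passed in the Cy5 direction and 2 in the Cy3 direction, with a median of -0.03. They were led by Sulf1, a heparan sulfate sulfatase, at 0.81 ± 0.19 (limma adjusted p = 0.00426), Rprm, a cell-cycle inhibitor used as a layer 6 marker, at -0.40 ± 0.11 and the zinc-finger genes Tshz3 at -0.51 ± 0.29 and Tshz2 at 0.48 ± 0.29. With median centring, the calls in the Cy3 direction were 1 in the layer 5 list and 0 in the layer 6 list, and with the scanner software's processed signals the layer 6 list had 1 call in the Cy5 direction. Of the 5 layer 6 genes called in that direction, Ppp1r1b and Foxp1 also stand on the striatal list.

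Genes that regulate or bind the members were described in the same way. Of 27 regulators and partners, 6 were brighter in Cy5 and 3 in Cy3, with a median of 0.02, and with median centring it was 12 and 0. Those with the smallest adjusted p-values all had positive ratios: Lmo4, which binds LDB proteins, Nr2f1, an areal nuclear receptor, at 0.72 ± 0.20, Bcl11a, the close relative of Bcl11b, at 0.54 ± 0.14 and Lhx2, a LIM-homeobox factor, at 0.44 ± 0.10. Of 16 genes reported as targets of the member factors, 3 were brighter in Cy5 and 2 in Cy3, with a median of 0.04, while median centring gave 5 and 1 and the processed signals 0 and 1. They include Cntnap4, a neurexin-family adhesion protein, at -0.53 ± 0.15, Slc17a7, the vesicular glutamate transporter of cortical neurons, at 0.36 ± 0.15, Mef2c, a transcription factor that Foxp2 represses in striatum, at 0.42 ± 0.24 and Nrp1, a semaphorin receptor, at -0.52 ± 0.36. Of 17 measured family relatives, 2 were brighter in Cy5 and 1 in Cy3, with a median of 0.15, and with median centring it was 4 and 0. The relatives past the threshold were Bcl11a, Foxp1 at 0.29 ± 0.13 and the synaptotagmin Syt9 at -0.41 ± 0.26.

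Neighbouring cortical populations and markers of other cells moved as follows. Of the 12 markers of cortical glutamatergic neurons, 4 were brighter in Cy5 and 3 in Cy3, with a median log2 ratio of 0.16. In the upper-layer list of 19, the Cy5 direction had 7 calls and the Cy3 direction 4, led by Rorb, a nuclear receptor of layer 4, at 1.04 ± 0.05 (limma adjusted p = 0.000485). In the subplate list of 13, it was 5 calls against 0, led by Cplx3 at 2.43 ± 0.20, and 1 of the 5, Drd1, is also a striatal gene. In the striatal list of 17, it was 10 against 0, and no gene was at background on all arrays in either channel. With the scanner software's processed signals, 0 of the striatal genes passed. The summed signal of the striatal list was 121900 to 134947 in Cy5, against 58318 to 107066 in Cy3. Its median log2 ratio was 0.84, 0.18 and 0.59 on arrays 1, 2 and 3. The brightest Syt6 and Etv1 probes, both Bcl11b probes and the dimmer Tle4 probe have the same order of arrays. The other measured member probes do not. This order was compared after the values were seen, and its share among all probes was not computed. It is not particular to striatal genes, since the list median of oligodendrocyte lineage genes has it too, at 0.22, 0.05 and 0.09. The dimmer Syt6 probe and both measured Foxp2 probes are highest on array 3. Array 1 had the largest absolute log2 ratio for 57.3% of all probes tested. Penk, the enkephalin precursor of striatal neurons, read 30809, 30708 and 33790 in Cy5 and 10490, 22289 and 14530 in Cy3, so its ratio varied mainly through the Cy3 channel. Bcl11b and Foxp2 are expressed in striatum too. The part of striatal RNA in the ratios of Syt6, Bcl11b, Foxp2 and the other members was not tested.

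Among the remaining lists, the median log2 ratio was -0.19 for interneuron, -0.07 for thalamic and -0.06 for astrocyte genes. Calls in both directions lie behind these medians. For microglial and oligodendrocyte lineage genes it was 0.17 and 0.10. Of 7 red blood cell genes, 2 were brighter in Cy5, with a list median of 0.13, 0.52 and 1.67 on arrays 1, 2 and 3, so array 3 stood out there. Of 12 interneuron genes, 2 had more signal in Cy5 and 4 in Cy3. Of 10 thalamic genes, 1 had more signal in Cy5 and 3 in Cy3, of 10 astrocyte genes 1 and 2, and of 10 microglial genes 3 and 0. Among 10 genes of the oligodendrocyte lineage, each by its brightest probe, 0 passed in limma in either direction and 2 had an unadjusted p under 0.05. A dimmer probe of Mbp, a myelin protein, passed at 0.39 (limma adjusted p = 0.0341). Their part in the member ratios was not tested.

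**Figure D3:**
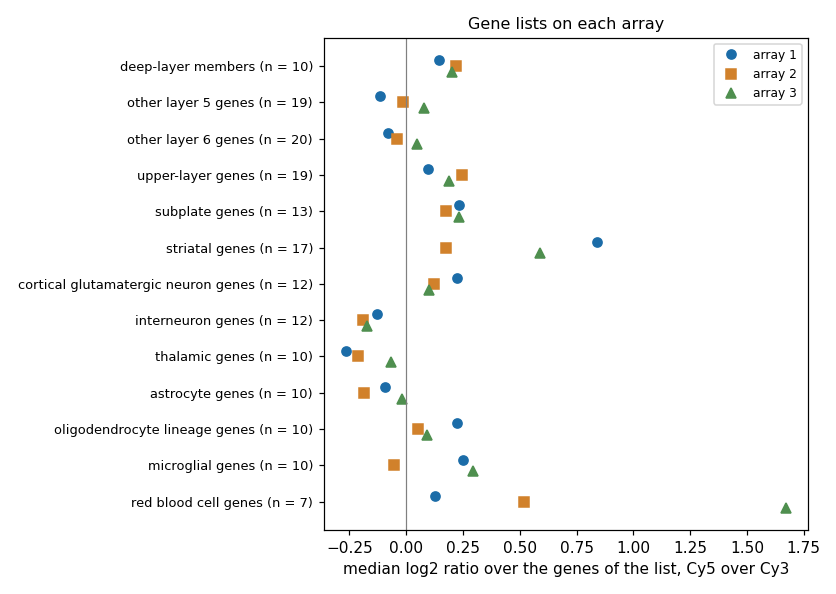
Each row of this plot is a gene list, and each symbol is the median log2 ratio of Cy5 over Cy3 over its genes on 1 array, with the number of measured genes in brackets. The deep-layer members lie between 0.14 and 0.22 on all 3 arrays, while the striatal list spreads from 0.18 to 0.84 and the red blood cell list from 0.13 to 1.67.

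**Figure D4:**
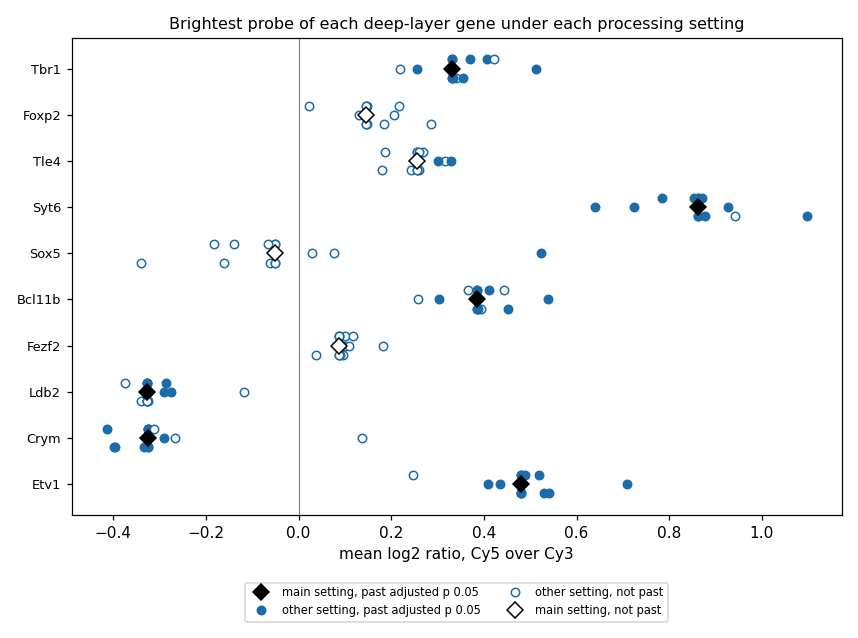
For the brightest probe of each deep-layer gene, the horizontal axis gives the mean log2 ratio of Cy5 over Cy3, with a diamond for the setting used in the text and a circle for each other processing setting, filled where the adjusted p is under 0.05. In the setting that averages the probes of a gene, the circle is that average and not the brightest probe. Syt6 ranges from 0.64 to 1.10 and Etv1 from 0.25, its average of both probes, to 0.71. Crym and Sox5 each cross 0, at 0.14 and 0.52 with median centring.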

How the data were processed

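Each two-colour array gave spot intensity in Cy5 and Cy3, extracted with version 10.7.3.1 of Agilent's Feature Extraction from an array grid of build mm9, per the file headers. The deposited median intensity of spot and local background carries no normalization. The deposited processed intensity is background-subtracted and dye-normalised, per the file headers, and served in an alternative. The deposited log10 ratio equalled that of the processed signals, within 0.001, for 77.8% to 78.7% of spots, and was used for this check only. The 3 arrays share 1 slide and 1 scan, and 57.9% to 61.0% of the 59305 non-control spots per array and channel were well above background. The number of arrays limits the precision.

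The authors deposited a table of log2 fold changes, log2 averages, a t score, a log-odds score and a p-value for each spot, made with limma per the submitters' processing notes. The sources used here give neither its direction nor its normalization.

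Medians were corrected with normexp (offset 50) and loess in limma 3.58.1 under R 4.3.3, with control spots at weight 0 and 247 to 266 outlier spots per array left out. Levels followed Aquantile normalization. Log2 ratios were tested by an intercept-only limma fit with moderated variances, two-sided, Benjamini-Hochberg over 32983 probes, threshold 0.05. The fit was tested on simulated data. Over all probes, the ratios of pairs of arrays correlated at Pearson r of 0.49 to 0.70, where probes are not independent.

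Probes were named through RefSeq accessions (27656) or the authors' deposited table (4049), which depends in part on the outcome. All members and Brpf1 were named. Up to 4 genes with the smallest adjusted p were named for the other genes of the same layers, regulators and partners, reported targets and relatives. For the upper-layer and subplate lists, only the leading gene was named by this rule. Ppp1r1b, Foxp1 and Drd1 were also named as genes shared with the striatal list. Penk and the dimmer Mbp probe were named outside this rule, which was not applied to the remaining lists. Emx1 was added after its values were seen. The members and lists were chosen with earlier results of these data known. Alternatives were other background corrections, normalizations, filters, fits and probe summaries, and leaving out each array.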

Additional observations from a re-analysis of the deposited data

How the results depend on the processing

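The number of deep-layer probes past the threshold was 8 after loess and 1 from signals the scanner software had processed, and 4 to 10 when 1 array was left out. For genes, it was 6 after loess, 1 with the processed signals and 2 to 5 with 1 array left out. With the probes of each gene averaged it was 4, of which 2 were brighter in Cy5 and 2 in Cy3. Counts brighter in Cy3 were 0 with median centring, with the processed signals and without array 3. Over all 32983 probes, 5571 passed after loess (44.4% of them brighter in Cy5), 6754 with median centring (80.6%), 1433 with the processed signals and 2318 without array 3. Of the values of single probes, 9 changed sign, and none of those that did passed the threshold apart from Sox5. Median centring turned Crym to 0.14 and the brightest Sox5 probe to 0.52 (adjusted p = 0.0294), and that Sox5 probe was also positive with array weights (0.0300) and ranged from -0.161 to 0.0765 with 1 array left out. The dimmer Etv1 probe turned to -0.10 with the processed signals, -0.00926 without background subtraction and -0.0676 without array 2, and ranged from -0.0938 to 0.201 with 1 array left out. The dimmer Tle4 probe ranged from -0.00732 to 0.254 with 1 array left out. In all, 200 alternative values of member probes kept sign and side of the threshold, 21 lost the call and 11 gained it. The cause was not tested. Dim probes of Foxp2 and Sox5 gave no test, and no member level is a bound. The fit on ratios within arrays is itself paired by array, so no further block was added.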
